A study of Mus musculus with 6 samples.

Results

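The cytosolic ribosomal protein genes were taken as the 87 of 57010 gene IDs in the count table whose symbol is Rpl, Rps or Rplp with a number and at most a short ending, together with Rpsa. They comprised 53 genes named for the large subunit and 34 named for the small subunit. All 87 were found by symbol in the RefSeq gene table of GRCm38.p6, which classes 84 as protein-coding, Rpl6l and Rps12l1 as pseudogenes and Rps4l as a transcribed pseudogene. They lie on 19 chromosomes, with 15 on chromosome 7 and 4 on the X chromosome.

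RNA was sequenced from material precipitated with an antibody to PNMA4, a capsid-like protein of retrotransposon origin that mouse gene tables call Moap1. Each of the 6 libraries began with 8 testes from mice of 3 months, and the lysate was spun onto sucrose of 25% over 70%. Material from above the 70% layer was then spread by density in iodixanol, and fractions 8 and 9 were used for the precipitation. The groups were 3 libraries of wild type mice (C57BL/6J) and 3 libraries lacking PNMA4, of which replicates 1 and 2 were Pnma4 knockouts and replicate 3, here the double knockout, lacked Pnma1 and Pnma4. The labels treat the double knockout as the third replicate of its group, and the design text calls the lysates biological replicates. Testes were pooled within a lysate, and the precipitates of mice lacking PNMA4 are the background of the procedure.

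A cytosolic ribosome joins a small subunit, which reads the message, to a large subunit, which makes the peptide bond and holds the tunnel through which the new protein leaves. Most messages for ribosomal proteins start with a run of pyrimidines, the 5′ TOP motif, through which growth signalling controls their translation as a group. In the male germ line the X chromosome is silenced during meiosis, and autosomal copies such as Rpl10l and Rpl39l are known to be expressed where their X-linked relatives Rpl10 and Rpl39 are not.

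The stretches before the starts of these 2 pairs are shown because the pairs contrast an X-linked with an autosomal gene of the same subunit position. Capitals mark CCGGAAG, the core of the binding motif of ETS family factors, CTTTCC, a pyrimidine run, and TATAAA, the TATA box, on either strand. The sequences are RefSeq's, from GRCm38.p6, read along each gene's own strand and ending at the base before its record.

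Rpl10: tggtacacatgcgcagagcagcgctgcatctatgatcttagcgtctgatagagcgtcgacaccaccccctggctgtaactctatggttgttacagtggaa
Rpl10l: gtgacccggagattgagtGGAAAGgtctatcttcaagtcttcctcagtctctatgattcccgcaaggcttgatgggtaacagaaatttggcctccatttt
Rpl39: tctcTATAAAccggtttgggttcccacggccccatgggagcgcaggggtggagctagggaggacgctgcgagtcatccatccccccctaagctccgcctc
Rpl39l: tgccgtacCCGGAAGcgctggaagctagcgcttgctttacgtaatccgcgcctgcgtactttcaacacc

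The windows are chrX:74270716-74270815 on the plus strand for Rpl10, chr12:66284402-66284501 on the minus strand for Rpl10l, chrX:37085223-37085322 on the minus strand for Rpl39 and chr16:10170128-10170196 on the plus strand for Rpl39l. The Rpl10 window held none of the 3 motifs, the Rpl39 window held the TATA box, the Rpl10l window held the pyrimidine run on the opposite strand, and the Rpl39l window held the ETS core. Shares were also taken over the 250 upstream bases of each promoter entry, which, unlike the windows above, were not cut at the gene record. CCGGAAG was found on either strand of any entry in 19 of the 64 members with one, or 29.7%, against 7.83% of 27025 genes. CTTTCC was found in 32.8% of those members and 25.4% of all genes, and TATAAA in 7.81% and 14.3%. The motifs do not overlap each other, were chosen after such shares had been seen, and are descriptions of letters, not of bound factors. CTTTCC was sought upstream and on both strands, so its shares do not measure the 5′ TOP motif, which lies at the start of the message.

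Ribosomal protein messages were a small part of every library. Total counts ran from 3138657 to 6367930 per library, and the members held 2746 to 5522 of them. Of the 87 members 85 had a count, and 79 passed the filter on low counts, 47 of the large and 32 of the small subunit. The 8 not tested were Rpl36a, Rpl22l1, Rpl39, Rpl6l, Rpl3l, Rpl32l, Rps21 and Rps12l1, of which Rpl32l and Rps12l1 had no count. Moap1, the targeted gene, was counted 7, 26 and 27 times in the wild type libraries and 0 times in each of the 3 lacking PNMA4, and Pnma1 had 0 counts in the double knockout and 76 to 152 elsewhere. Germ cell markers, which check the tissue label, were present throughout but at unlike levels. Of the elongating spermatid markers 10 of 10 were tested, with a summed level of 1669 to 2233 CPM (counts scaled to a common library size). Of the spermatogonia markers 9 of 11 were tested, with a summed level of 85.4 to 111 CPM.

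The members' share of all counts was 0.0962%, 0.0894% and 0.0831% in the wild type libraries, 0.0875% and 0.0867% in the Pnma4 knockouts and 0.0767% in the double knockout. The double knockout was lowest, and its 95% Wilson interval of 0.0743% to 0.0792% lay below those of the other 5 libraries, where the lowest bound was 0.0809%. The means were 0.0896% ± 0.00653 for wild type libraries and 0.0836% ± 0.00601 for those lacking PNMA4 (SD, n = 3 each), and the groups overlapped. These intervals cover counting error only, because reads that carry no molecular identifiers may repeat a molecule.

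The position of the double knockout turned with the denominator. In that library 66.3% of counts fell on 2 genes, Rn18s-rs5 and Lars2, against 28.1% to 46.9% in the others. These are grouped here as rRNA-like by choice, and whether the reads on Lars2 came from rRNA was not tested. With both left out, the members held 1681, 1243 and 1394 CPM in wild type, 1648 and 1385 in the Pnma4 knockouts and 2276 in the double knockout, now the highest. TMM scaling, edgeR's factors that set most genes equal between libraries, placed the sums at 946, 699 and 778 CPM in wild type, 871 and 789 CPM in the Pnma4 knockouts and 1227 CPM in the double knockout. Its TMM factor was 0.628, against 1.01 to 1.29 in the others. All CPM values from here on use TMM scaling; they count reads and are not divided by message length, so the order of genes by CPM is an order of reads, not of message level.

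**Figure D1:**
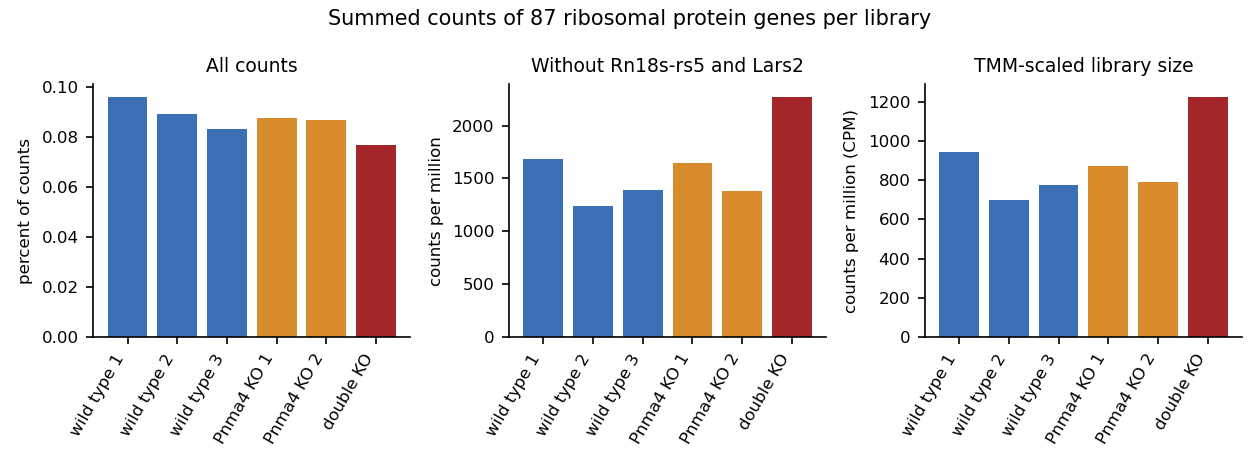
Summed counts of the 87 ribosomal protein genes in each library, as percent of all counts (left), CPM without Rn18s-rs5 and Lars2 (middle) and CPM of the TMM-scaled library size (right). Each bar is 1 library; the double knockout is the lowest at 0.0767% on the left and the highest at 2276 and 1227 CPM in the other panels.

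Both subunits shared this pattern. The large subunit took 69.4%, 68.4% and 68.5% of the members' counts in wild type, 66.3% and 69.5% in the Pnma4 knockouts and 67.4% in the double knockout. The means of 68.8% ± 0.521 and 67.7% ± 1.61 (SD, n = 3 each) differed by more than the SD of wild type and less than that of the group lacking PNMA4, and the groups overlapped. The double knockout exceeded the mean of the other 5 libraries 1.48-fold for the large subunit (827 against 559 ± 65.4 CPM) and 1.55-fold for the small subunit (399.6 against 258 ± 32.2 CPM; SD, n = 5).

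The first comparison asks whether messages for ribosomal proteins were recovered with PNMA4 beyond the background of the procedure. None of the 79 tested members passed edgeR's quasi-likelihood test at an adjusted p under 0.05 in either direction, against 0.0224% of the 13413 genes tested that were higher and 0.0373% that were lower in wild type. The members' log2 fold changes, wild type over lacking PNMA4, were negative for 65 and positive for 14, with a median of −0.27 against 0.01 over all genes. The median was −0.27 in the 47 large subunit genes and −0.31 in the 32 small subunit genes. At an unadjusted p under 0.05, 0 members were higher and 8 lower in wild type, against 1.27% and 1.65% of all genes, and all 8 had an adjusted p of 1. DESeq2 called 0 members as well, with 5 lower at an unadjusted p under 0.05, against 1.08% of all genes by that tool. For 45 of the 79 the 95% interval held only log2 fold changes between −1 and 1.

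Of the libraries left out in turn, the double knockout moved the median most. Without that library it was −0.06, with 46 members negative and 33 positive, and 2 were lower at an unadjusted p under 0.05, against 0.825% of all genes in that fit. Without wild type replicate 2, the lowest of the wild type libraries, it was −0.17 with 57 of 80 tested members negative and 1 lower at an unadjusted p under 0.05, against 1.03%, and without Pnma4 knockout replicate 2 it was −0.44 with 16 of 79 lower at an unadjusted p under 0.05, against 3.09% of all genes in that fit. With library totals in place of TMM factors the median of the members was 0.09 and that of all genes 0.32, so that the members again stood 0.23 below all genes.

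**Figure D2:**
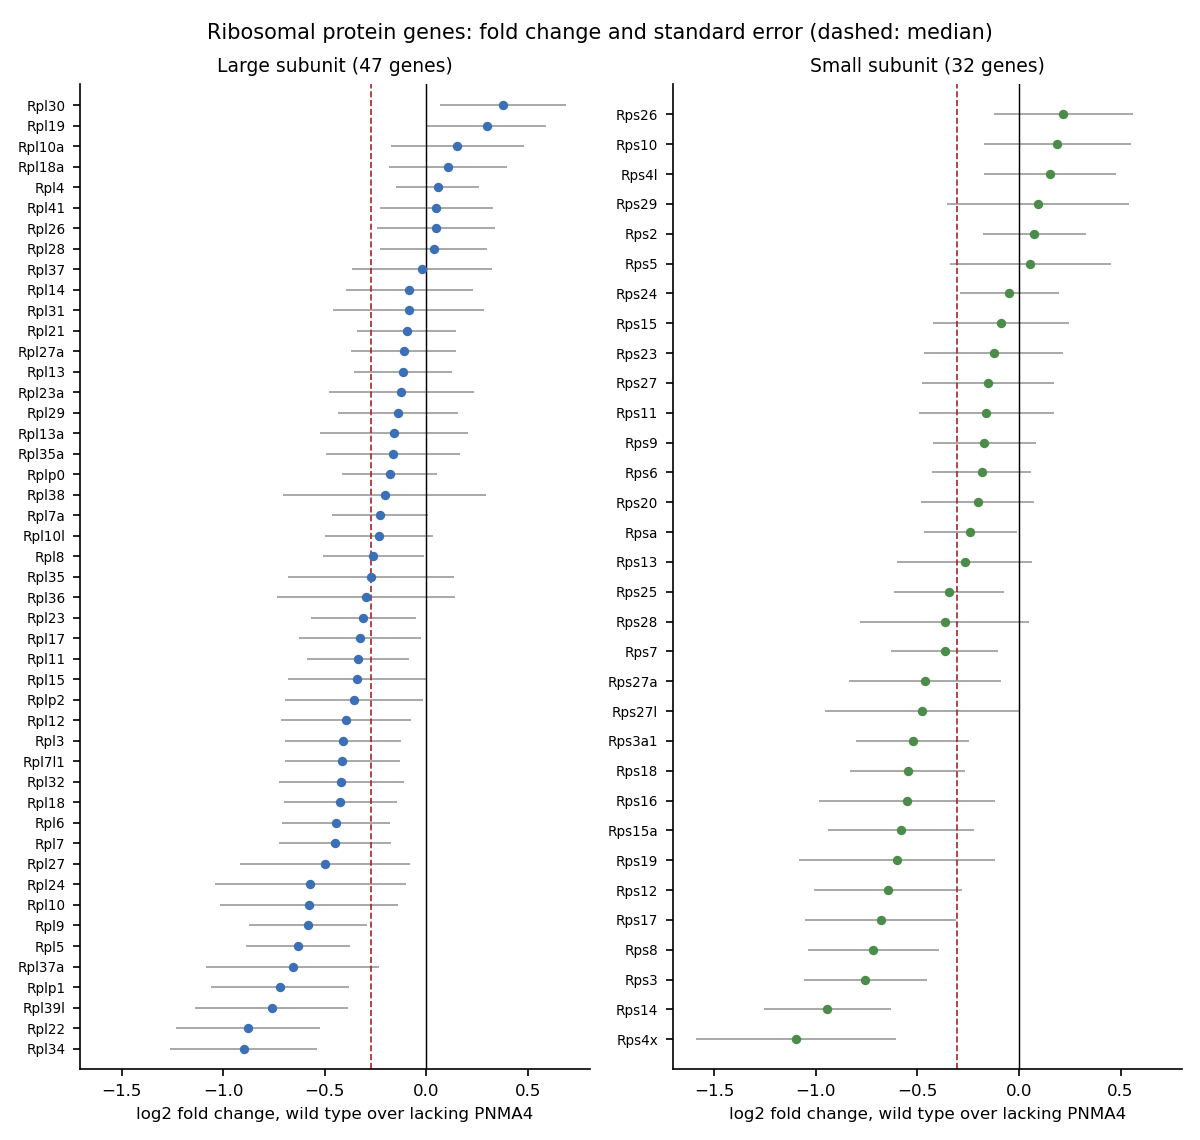
Log2 fold change of each tested member, wild type over lacking PNMA4, with bars of 1 standard error, for 47 large subunit and 32 small subunit genes, ordered by value; dashed lines are the medians. Most points lie left of 0, at medians of −0.27 and −0.31, and none passed the test after adjustment.

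Among the large subunit genes with the most reads was Rpl4, whose protein lines the exit tunnel, with 67.8, 54.0 and 53.6 CPM in wild type, 50.5 and 56.0 CPM in the Pnma4 knockouts and 61.9 CPM in the double knockout. All 6 values lay close together, and the log2 fold change was 0.06 (SE 0.20, adjusted p = 1, edgeR). Rpl13 had means of 37.9 ± 13.1 CPM for wild type and 40.8 ± 9.26 CPM for libraries lacking PNMA4, and Rpl8, which sits near the peptidyl transferase centre, 24.0 ± 5.72 and 28.7 ± 9.00 CPM (SD, n = 3 each). For both genes the groups overlapped.

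The stalk proteins recruit translation factors to the large subunit, with Rplp0 as the base that holds Rplp1 and Rplp2. Rplp0 stood at 58.6, 52.7 and 35.3 CPM in wild type, 65.4 and 39.7 CPM in the Pnma4 knockouts and 61.9 CPM in the double knockout, with a log2 fold change of −0.18 (SE 0.23). Rplp1 stood at 4.21, 2.94 and 6.45 CPM in wild type against 8.57, 6.71 and 7.36 CPM in the group lacking PNMA4, a log2 fold change of −0.72 (SE 0.34). Its groups did not overlap, with every wild type library lower, whereas those of Rplp0 did. Rplp2 had means of 4.35 ± 0.970 and 5.54 ± 0.758 CPM and overlapping groups (SD, n = 3 each). The 3 genes together held 5.95% to 9.10% of the members' counts, with wild type replicate 3 and Pnma4 knockout replicate 1 at the ends.

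In 5 of the 79 tested members every wild type library lay below every library lacking PNMA4, against 458 of 13413 genes, or 3.41%. In 0 members every wild type library lay above, against 3.28%. All 5 were large subunit genes, which make up 47 of the 79 tested: Rpl5, Rpl32, Rplp1, Rpl34 and Rpl39l. A difference between the subunits in this count was not tested. Rpl5, which carries 5S rRNA into the ribosome, stood at 12.9, 9.72 and 12.0 CPM in wild type, against 19.7, 13.1 and 21.4 CPM in the group lacking PNMA4, with a log2 fold change of −0.63 (SE 0.26). The gap between the nearest libraries of the 2 groups was small, 12.9 against 13.1 CPM. Rpl34 stood at 3.42, 2.56 and 5.07 CPM in wild type, against 5.08, 6.14 and 9.70 CPM in the group lacking PNMA4, a log2 fold change of −0.90 (SE 0.36). Here too the highest wild type and the lowest other library almost met. Rpl5 and Rpl32 overlap other protein-coding genes, Dipk1a and Cand2, and reads from these cannot be told apart where strand is unknown. This limit holds for the 14 of the 87 members that overlap another protein-coding gene.

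At the positive end were Rpl30 with a log2 fold change of 0.38 (SE 0.31), Rpl19 with 0.30 (SE 0.29) and the small subunit gene Rps26 with 0.22 (SE 0.34). None of these 3 passed the test, and for each the groups overlapped. The tested large subunit genes with the fewest reads, Rpl38 and Rpl24, had means of 2.67 ± 1.76 and 1.67 ± 0.788 CPM in wild type and 2.92 ± 0.731 and 2.80 ± 1.10 CPM without PNMA4 (SD, n = 3 each). Rpl19 overlaps the protein-coding gene Cacnb1, and Rpl24 overlaps Zbtb11.

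In the small subunit the genes with the most reads were Rps6, the substrate of the S6 kinases, Rpsa, Rps24 and Rps2. Rps6 had means of 19.9 ± 4.21 CPM for wild type and 22.6 ± 5.36 CPM for libraries lacking PNMA4, and Rpsa, also known as a laminin receptor, 18.1 ± 1.66 and 21.3 ± 2.68 CPM (SD, n = 3 each). Rps24 and Rps2 had log2 fold changes of −0.05 (SE 0.24) and 0.08 (SE 0.25). None of these 4 separated the groups.

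Rps14, on the platform of the small subunit, had the lowest unadjusted p of the members, 0.00583 (edgeR, adjusted p = 1), and a log2 fold change of −0.94 (SE 0.31). It stood at 9.46, 5.50 and 7.22 CPM in wild type, 16.8 and 8.00 CPM in the Pnma4 knockouts and 18.4 CPM in the double knockout. Pnma4 knockout replicate 2 lay within the wild type range, so the groups overlapped. Rps4x, on the X chromosome, had the most negative log2 fold change, −1.10 (SE 0.49), at 1.05, 1.41 and 1.84 CPM in wild type, 3.17 and 1.57 CPM in the Pnma4 knockouts and 5.69 CPM in the double knockout. This value rests on 4 to 17 counts per library.

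For the X-linked genes and their autosomal relatives, counts are given first, since they show the depth behind each share. Rpl10, whose protein joins the large subunit late and is needed for subunit joining, had 18, 19 and 33 counts in wild type, 11 and 24 in the Pnma4 knockouts and 36 in the double knockout. Rpl10l had 103, 139 and 149 counts in wild type, 80 and 120 in the Pnma4 knockouts and 114 in the double knockout. Rpl10l thus had more reads than Rpl10 in all 6 libraries, although their message lengths were not available to set the levels on one scale. Its share of the pair's counts was 85.1%, 88.0% and 81.9% in wild type, 87.9% and 83.3% in the Pnma4 knockouts and 76.0% in the double knockout. Means were 85.0% ± 3.05 for wild type libraries and 82.4% ± 6.01 for those lacking PNMA4 (SD, n = 3 each). The double knockout was lowest, with a 95% Wilson interval of 68.6% to 82.1% that overlaps those of other libraries.

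In CPM, Rpl10 stood at 4.73, 2.43 and 5.07 in wild type, 3.49 and 3.43 in the Pnma4 knockouts and 12.0 in the double knockout. Rpl10l stood at 27.1, 17.8 and 22.9 CPM in wild type, 25.4 and 17.1 CPM in the Pnma4 knockouts and 38.1 CPM in the double knockout. For both genes the double knockout was the highest library and the other 5 were mixed between groups. Wild type over lacking PNMA4, the log2 fold changes were −0.58 (SE 0.44) for Rpl10 and −0.24 (SE 0.27) for Rpl10l. Rpl10 lies at chrX:74270816-74273135, with a span of 2320 bases, and Rpl10l at chr12:66283379-66284401, with a span of 1023 bases.

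Rpl39, which lines the exit tunnel, was near the limit of detection, with 0, 1 and 2 counts in wild type, 1 and 0 in the Pnma4 knockouts and 5 in the double knockout. A count of 0 allows up to 3 counts, or 0.789 CPM in wild type replicate 1 and 0.429 CPM in Pnma4 knockout replicate 2. Rpl39l had 9, 17 and 23 counts in wild type, 13 and 31 in the Pnma4 knockouts and 16 in the double knockout. It held 92.0% to 100% of the pair's counts in the other 5 libraries and 76.2% in the double knockout, where the interval was 54.9% to 89.4%. In CPM Rpl39l stood at 2.37, 2.17 and 3.53 in wild type and 4.13, 4.43 and 5.35 in the group lacking PNMA4, a log2 fold change of −0.76 (SE 0.38, unadjusted p = 0.0535, adjusted p = 1, edgeR). Every wild type library was lower, while the order within the group lacking PNMA4 put the double knockout above both others. Rpl39 lies at chrX:37082518-37085222 and Rpl39l at chr16:10170197-10174911.

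Rps4l, the autosomal relative of Rps4x, had 48, 71 and 47 counts in wild type, 26 and 36 in the Pnma4 knockouts and 40 in the double knockout. Its share of the pair was 92.3%, 86.6% and 79.7% in wild type, 72.2% and 76.6% in the Pnma4 knockouts and 70.2% in the double knockout. Of the 7 paralogue pairs only this pair had shares that did not overlap between groups, with means of 86.2% ± 6.33 and 73.0% ± 3.28 (SD, n = 3 each). No test of this share was made, and no share over other gene pairs was taken beside it. Its Wilson intervals overlapped between neighbouring libraries. Neither gene passed the test: Rps4l had a log2 fold change of 0.15 (SE 0.32). Rps4l lies at chr6:148354656-148355596, within the span of Tmtc1, and how reads were divided between similar copies or overlapping genes is not given in the sources used here. Rpl36a, the remaining X-linked member, had 2 to 9 counts per library and was not tested.

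**Figure D3:**
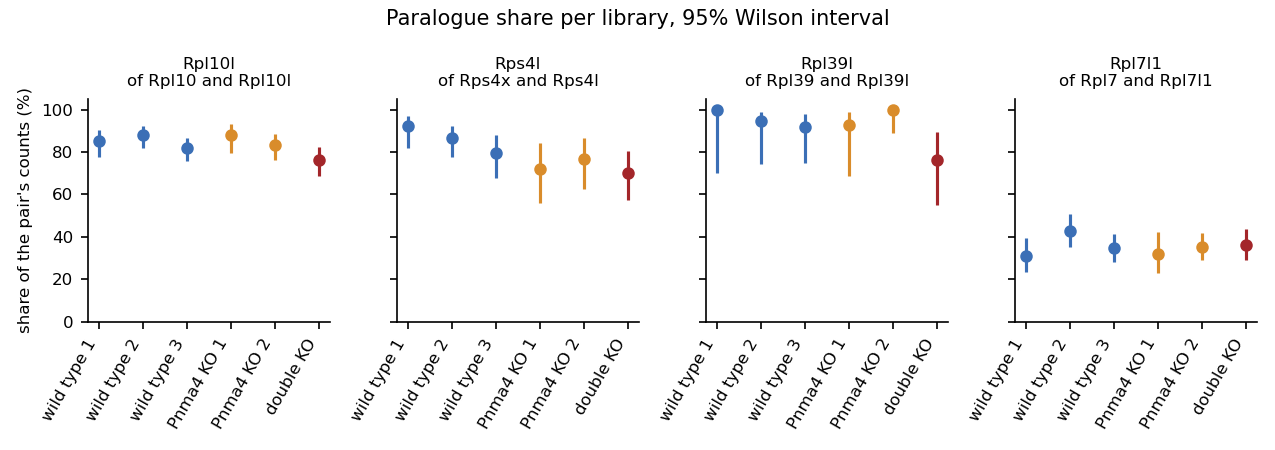
Share of a pair's counts that fell on the second-named paralogue in each library, with 95% Wilson intervals for counting error, for Rpl10l, Rps4l, Rpl39l and Rpl7l1; each point is 1 library. Rpl10l, Rps4l and Rpl39l held over 70% of their pair in every library, with the double knockout lowest at 76.0%, 70.2% and 76.2%, while Rpl7l1 held 30.8% to 42.9%.

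The other paralogues took the smaller part of their pairs. Rpl7l1 held 30.8% to 42.9% of its counts with Rpl7 and Rps27l 14.9% to 23.1% of its counts with Rps27. Rpl22l1 held 3.70% to 29.3% with Rpl22, the widest range, on 1 to 12 counts of its own. Rpl3l, the muscle form of Rpl3, had 0 to 3 counts per library. The 7 paralogues together held 5.18% to 6.41% of the members' counts.

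The second comparison sets the double knockout library against the 2 Pnma4 knockout libraries. It describes 1 library, assumed to vary like the others, and it shares that library with the first comparison, so their results are not independent. None of the 79 members passed at an adjusted p under 0.05 (edgeR, lowest adjusted p = 0.302), against 0.0373% of all genes higher and 0.0373% lower in the double knockout. At an unadjusted p under 0.05, 18 members were higher and 0 lower, against 3.72% and 2.47% of all genes, and DESeq2 gave 6 higher, against 1.64% of all genes by that tool. The log2 fold change was positive for 71 members and negative for 8, with a median of 0.63 against −0.01 over all genes, and of 0.62 in the large and 0.66 in the small subunit. With library totals in place of TMM factors the medians were −0.13 and −0.76, a difference of 0.63. Leaving out any 1 of the 5 other libraries gave medians of 0.58 to 0.68.

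The 3 largest values were 1.79 for Rpl10 (SE 0.51, adjusted p = 0.302), 1.78 for Rpl36 (SE 0.52, adjusted p = 0.33) and 1.53 for Rps19 (SE 0.61, adjusted p = 0.648), all by edgeR. Rps19 is the gene most often mutated in Diamond-Blackfan anaemia. Rpl36 stood at 11.4 CPM in the double knockout and 2.86 and 3.57 CPM in the Pnma4 knockouts, but at 7.36 CPM in wild type replicate 1. At the other end were Rps27l with −0.35, Rpl26 with −0.25 and Rpl23 with −0.14. The 4 X-linked members together stood at 21.4 CPM in the double knockout and 4.35 to 8.60 CPM in the others, 3.13-fold above their mean. They held 1.74% of the members' counts there, with an interval of 1.37% to 2.22%, and 0.622% to 1.11% in the other 5 libraries, on 24 to 64 counts per library. The interval overlapped that of wild type replicate 3, 0.853% to 1.43%, and Rpl10 gave 36 of the 64 counts in the double knockout.

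The libraries were also ranked within each gene. The double knockout was the highest of the 6 libraries in 54 of the 79 tested members, or 68.4%, against 22.8% of all genes, and the lowest in 0. Wild type replicate 2 was the lowest in 40, or 50.6%, and the highest in 3, or 3.80%, against 16.5% and 16.9% of all genes. Against the mean of the 4 libraries other than itself and the double knockout, on the log2 CPM scale, replicate 2 was below in 63 members and above in 16. The median level over the tested members was 8.94, 6.39 and 7.22 CPM in wild type, 7.93 and 7.0 CPM in the Pnma4 knockouts and 11.7 CPM in the double knockout.

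Some components of the ribosome fall outside the naming rule. Fau, whose product carries a ubiquitin-like part before the ribosomal protein, the small subunit scaffold Rack1 and Rpl36al were tested, and each had a negative log2 fold change in wild type and a positive one in the double knockout. Fau had means of 13.4 ± 5.32 CPM for wild type and 14.3 ± 5.69 CPM for libraries lacking PNMA4 (SD, n = 3 each) and 20.4 CPM in the double knockout alone. Rack1 had means of 10.6 ± 1.03 and 14.1 ± 3.90 CPM (SD, n = 3 each). None of these passed the test in either comparison.

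Other messages of the 5′ TOP class were also counted. Of 16 such genes for translation factors and related proteins 0 passed in either comparison, with a median log2 fold change of −0.07 in wild type and 0.08 in the double knockout. In wild type 13 were negative and 3 positive, and in the double knockout 9 were positive and 7 negative. In 2 every wild type library lay lower, against 3.41% of all genes, and in 0 higher. The double knockout was the highest library in 6, against 22.8% of all genes, and the lowest in 0. Their summed level in the double knockout, 3501 CPM, was 0.949 of the mean of the other 5 libraries. Pabpc1, the poly(A) binding protein, had means of 1763 ± 250 CPM for wild type and 1603 ± 159 CPM for libraries lacking PNMA4, and the elongation factor Eef2 832 ± 283 and 777 ± 122 CPM (SD, n = 3 each). The 38 ribosome assembly factors, among them Mdn1 and Heatr1, also had 0 calls, medians of 0.06 and 0.07 and a summed ratio of 0.983. The difference between these lists and the members was not tested.

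**Figure D4:**
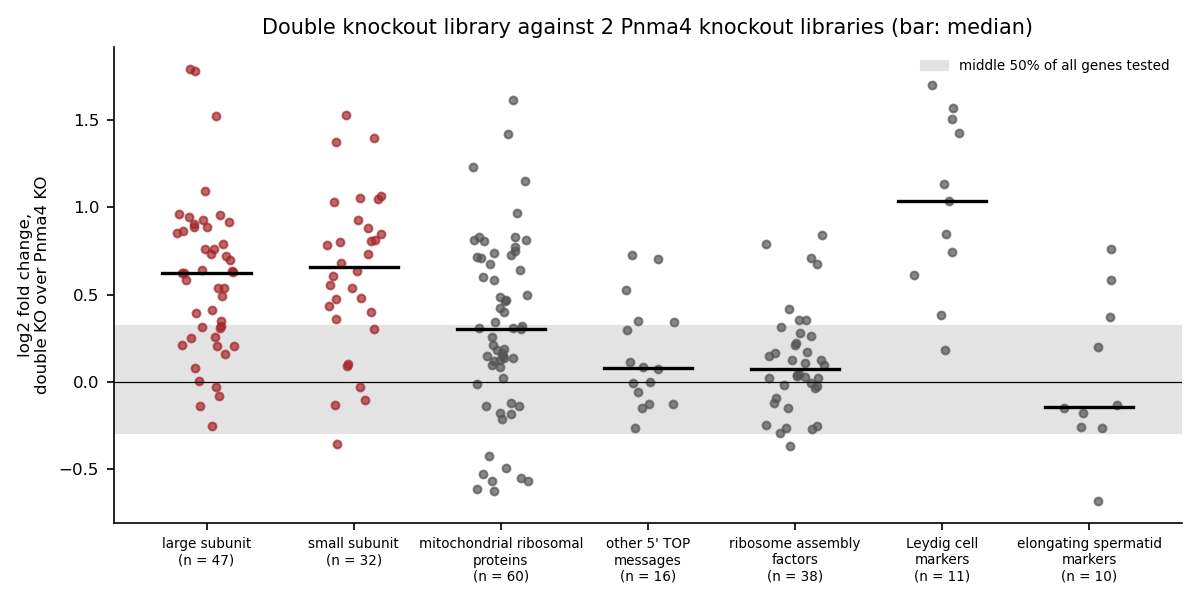
Log2 fold change of the double knockout library over the 2 Pnma4 knockout libraries for tested genes of 7 lists; each point is a gene, the bar is the list's median, and the grey band holds the middle 50% of all genes tested. The large and small subunit medians of 0.62 and 0.66 lie above the band, as does that of the Leydig cell markers at 1.04, while the other 5′ TOP messages and assembly factors lie at 0.08 and 0.07.

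Markers of somatic testis cells were also at their highest sums in the double knockout, and their part in the result was not tested. Of 11 Leydig cell markers 11 were tested, none was at 0 in any group, and all 11 were positive in the double knockout with a median of 1.04, none passing (lowest adjusted p = 0.0585, edgeR). Their summed level was 201 to 222 CPM in wild type, 189 and 242 CPM in the Pnma4 knockouts and 468 CPM in the double knockout. Cyp17a1, an enzyme of androgen synthesis, stood at 128 CPM there and at 32.1 to 55.2 CPM in the other 5 libraries, whereas Star, which moves cholesterol into mitochondria, stood at 46.5 CPM and 38.3 to 46.8 CPM. The 14 Sertoli cell markers summed to 203 to 257 CPM in wild type, 276 and 203 CPM in the Pnma4 knockouts and 370.5 CPM in the double knockout, with Clu the most abundant. The 10 macrophage markers summed to 24.6 to 27.2 CPM in wild type, 33.3 and 24.9 CPM in the Pnma4 knockouts and 38.5 CPM in the double knockout. Peritubular and vascular markers summed to 85.9 CPM in the double knockout and 53.6 to 69.9 CPM elsewhere. Among germ cell lists, spermatogonia markers were also highest in the double knockout, at 111 CPM against 85.4 to 103 CPM elsewhere. Spermatocyte markers summed to 1671 CPM in the double knockout and 1626 to 1887 CPM elsewhere. Round spermatid markers summed to 401 CPM there and 325 to 439 CPM elsewhere, and elongating spermatid markers to 2083 CPM and 1669 to 2233 CPM. In libraries of precipitated material the number of cells of a type, the RNA per cell and its carry-over into the precipitate cannot be told apart. The double knockout's rRNA-like share and genotype lie in 1 library and cannot be told apart either. Its total of 4781490 counts lay within the range of the other libraries, 3138657 to 6367930, and the part of depth was not tested.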

How the data were processed

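Per the file header, the authors deposited raw counts per gene ID with symbols, used unchanged. The submitters' processing notes name GRCm38, STAR 2.5.2b, bcl2fastq 2.20, DESeq2 and featureCounts from Subread, and how strand and multi-mapping reads were handled was not given in the sources used here. All 6 count columns were matched to libraries by name. Groups follow the labels. The lowest chi-square per gene between libraries was 8.60, so no library repeats another.

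Tests ran across all genes in edgeR 4.0.16 (R 4.3.3), by quasi-likelihood F test with TMM factors, filterByExpr (minimum count 10, minimum total 15) and Benjamini-Hochberg adjustment at 0.05, in 2 groups and, for the double knockout, in 3 genotypes. The fit in 2 groups was also run on simulated data, in which unchanged genes kept the same proportions in all libraries. That run does not cover a library that deviates in many genes, as the double knockout did, and lends no support to the absence of calls. Alternatives were DESeq2 1.42.0, limma 3.58.1 (voom), other scalings and filters, a replicate block and leaving out each library.

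The members and lists were chosen with earlier results of these data known. Named were the paralogue pairs, X-linked and stalk genes with Rpsa, the 4 most and 2 least abundant tested members per subunit, members past the threshold, the 3 largest and smallest log2 fold changes per comparison, components outside the naming rule and, of other lists, up to 3 genes past the threshold or the 2 most abundant. Members whose groups do not overlap, and Star, were named after their values were seen. Intervals of shares are 95% Wilson intervals. Message lengths and protein sequences were not used here. One gene that the rule named is not reported here.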

Additional observations from a re-analysis of the deposited data

How the results depend on the processing

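Counts of members past the threshold were 0 in both comparisons with RLE, upper-quartile and no factors, without the rRNA-like genes, with DESeq2, with both other filters and without each of the 5 libraries other than the double knockout. They were also 0 in the wild type comparison, the only one run there, with voom, with the replicate block and without the double knockout. With no factors the median log2 fold changes of the members were 0.0893 in wild type and −0.132 in the double knockout. Without Rn18s-rs5 and Lars2 the share of ribosomal protein counts in all counts, as wild type minus lacking PNMA4, differed by −0.033 percentage points, against 0.00592 with them. Leaving out each library moved the wild type median from −0.442 to −0.0617. With the labels' replicate number as a replicate block the median was −0.31, with 12 members lower at an unadjusted p under 0.05, against 2.29% of all genes in that fit. Same-numbered libraries had correlations of 0.04, −0.06 and 0.08 in their deviations from the group means, against −0.192 to 0.192 for unlike numbers. With 3 libraries per group these values cannot decide whether same-numbered libraries were prepared together, which the labels do not say. Of 846 values of named genes under alternatives 58 changed sign without a call, and 0 became called. With few counts per member, 34 of 79 intervals in wild type reached beyond 1 on the log2 scale.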

Other observations

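Mitochondrial ribosomal proteins, which build the separate ribosome of that organelle, stood between the cytosolic members and the assembly factors. Of 84 such genes by name, 60 were tested and 0 passed in the wild type comparison by edgeR. At an unadjusted p under 0.05 (edgeR), 0 were higher and 3 lower in wild type, against 1.27% and 1.65% of all genes. Their median log2 fold change was −0.17 in wild type and 0.31 in the double knockout. Their summed level was 357, 327 and 343 CPM in wild type, 353 and 351 CPM in the Pnma4 knockouts and 426 CPM in the double knockout, which was 1.23 times the mean of the other 5 libraries. Mrpl39 had means of 20.9 ± 0.349 CPM for wild type and 23.0 ± 5.36 CPM for libraries lacking PNMA4, and Mrpl51 16.1 ± 1.41 and 18.7 ± 2.38 CPM (SD, n = 3 each).

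Named pseudogenes of ribosomal proteins drew few reads. Of 322 by name, 151 had a count and 0 were tested, and their summed level was 16.1 to 21.7 CPM in all 6 libraries, with the double knockout 1.09 times the mean of the others. Ribosomal protein genes also host small nucleolar RNAs in their introns: 30 members held 59 snoRNA genes within their spans, 45 of these were named in the table, and they had 37 counts over all libraries together.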
